A study of Mus musculus with 4 samples.

Results

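The loci of 10 genes of the NF-kB system were followed through 4 ATAC-seq libraries of mouse collecting duct cells. They comprise the 5 subunit genes Nfkb1, Nfkb2, Rel, Rela and Relb, the 2 feedback genes Nfkbia and Tnfaip3, and the 3 inflammatory target genes Cxcl1, Ccl2 and Lcn2. Peaks of all libraries that shared at least 1 bp were merged into regions, and a region belonged to a locus when it lay in the gene or within 50 kb of its mm10 gene body. This gave 491 of 560228 regions. At the edge of the 50 kb window, the farthest region taken lay 49941 bp from Nfkb1 (500 bp wide, in 4 libraries) and the nearest one left out lay 50280 bp from Lcn2 (72 bp wide, in 1 library).

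Each treatment had 2 libraries. Both groups were mpkCCD clone 11 cells, an immortal line from 1 clone with features of cortical collecting duct, grown with dexamethasone, insulin and other supplements and then moved to medium lacking serum and hormones. dDAVP, a vasopressin analog that acts on the V2 receptor, was given at 0.1 nM for 30 minutes, and the other cells had its vehicle for the same time. ATAC-seq marks DNA that a transposase can reach, and the deposited lists hold the positions of its peaks with no height or read count. Separate cultures are not stated, so the spread between replicates may be technical.

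NF-kB proteins are dimers of Rel-family subunits that inhibitors of the IkB family hold in the cytoplasm. Receptors for cytokines or bacterial products activate the IKK complex, the inhibitor is degraded, and the dimer enters the nucleus and binds kB sites in target genes, among them the genes of its own inhibitors. In collecting duct principal cells, NF-kB activity is known for lowering Aqp2 transcription, and Lcn2 is a secreted protein that distal nephron cells release on injury or infection.

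Promoter windows from 250 bases before to 50 bases after an annotated start were matched in RefSeq (GRCm38.p6, the assembly behind mm10) for 7 of the 10 genes, with 10 windows in all. Nfkb1, Relb and Ccl2 had no entry. Those shown here carry the kB-like letters described next or, for Lcn2, the window whose peak differed most between libraries. Each runs 5′ to 3′ on the gene's strand, and capitals mark the kB-like matches.
Nfkbia, chr12:55492598-55492897, minus strand: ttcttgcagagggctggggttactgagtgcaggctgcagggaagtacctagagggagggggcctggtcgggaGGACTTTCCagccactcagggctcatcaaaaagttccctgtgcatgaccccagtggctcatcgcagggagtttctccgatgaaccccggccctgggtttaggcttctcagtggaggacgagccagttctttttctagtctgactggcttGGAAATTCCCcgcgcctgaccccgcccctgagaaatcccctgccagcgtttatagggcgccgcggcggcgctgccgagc
Tnfaip3, upstream start, chr10:19015361-19015660, minus strand: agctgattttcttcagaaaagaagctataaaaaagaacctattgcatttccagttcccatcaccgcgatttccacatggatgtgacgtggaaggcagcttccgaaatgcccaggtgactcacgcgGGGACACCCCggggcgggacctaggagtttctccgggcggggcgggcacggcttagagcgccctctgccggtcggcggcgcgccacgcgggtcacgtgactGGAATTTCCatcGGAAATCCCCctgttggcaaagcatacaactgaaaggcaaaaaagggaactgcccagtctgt
Rel, chr11:23770920-23771219, minus strand: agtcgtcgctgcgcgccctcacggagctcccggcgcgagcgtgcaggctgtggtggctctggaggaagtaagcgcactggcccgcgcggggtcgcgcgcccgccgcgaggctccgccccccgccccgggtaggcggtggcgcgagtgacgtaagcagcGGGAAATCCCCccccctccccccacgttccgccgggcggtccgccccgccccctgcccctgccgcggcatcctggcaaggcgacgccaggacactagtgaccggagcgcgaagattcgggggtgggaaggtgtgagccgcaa
Nfkb2, first listed start, chr19:46304487-46304786, plus strand: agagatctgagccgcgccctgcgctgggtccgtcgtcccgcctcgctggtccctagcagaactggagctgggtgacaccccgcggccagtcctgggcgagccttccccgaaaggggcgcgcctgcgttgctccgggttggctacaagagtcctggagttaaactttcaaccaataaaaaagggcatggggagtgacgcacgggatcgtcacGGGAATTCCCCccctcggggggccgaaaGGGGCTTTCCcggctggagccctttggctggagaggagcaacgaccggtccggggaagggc
Cxcl1, chr5:90890995-90891294, plus strand: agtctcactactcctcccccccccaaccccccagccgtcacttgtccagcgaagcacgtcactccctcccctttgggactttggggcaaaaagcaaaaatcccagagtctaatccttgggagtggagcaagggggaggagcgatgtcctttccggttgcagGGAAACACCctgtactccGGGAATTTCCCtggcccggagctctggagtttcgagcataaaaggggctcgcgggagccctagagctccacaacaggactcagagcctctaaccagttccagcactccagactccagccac
Lcn2, chr2:32387690-32387989, minus strand: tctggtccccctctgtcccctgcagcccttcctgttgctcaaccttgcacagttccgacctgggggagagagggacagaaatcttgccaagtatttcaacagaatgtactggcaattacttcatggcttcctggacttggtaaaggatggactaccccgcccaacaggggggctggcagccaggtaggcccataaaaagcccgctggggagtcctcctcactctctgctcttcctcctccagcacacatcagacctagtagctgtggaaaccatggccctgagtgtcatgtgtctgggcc

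The windows were searched on both strands for the 10-letter kB consensus, by its name, and for the shorter core GGNNTTTCC, which often overlaps it. The consensus was found at 5 of the 7 genes, namely Nfkbia, Tnfaip3, Rel, Nfkb2 and Cxcl1, and the core was found at the same 5. Over all protein-coding genes with a window, 5.53% held the consensus and 6.63% the core in at least 1 window. After merging overlapping matches, Tnfaip3 had 3 kB-like stretches, Nfkbia had 2, Cxcl1 had 2 and Rel had 1. The consensus match nearest the start began at -29 relative to the start at Nfkbia, -12 at Tnfaip3, -70 at Cxcl1, -91 at Rel and -11 at the first Nfkb2 start. Rela and Lcn2 held neither motif in their windows. The AP-1 letters TGANTCA occurred at Tnfaip3 and at a second start of Nfkb2 (8.13% of genes), and the cAMP response element TGACGTCA at none of the 7 genes (2.55% of genes). These matches are descriptions of letters, not of bound sites.

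All 300 bases of the window were under a peak in every library at Nfkbia, the upstream start of Tnfaip3, Rel, Rela, Cxcl1 and the 3 listed starts of Nfkb2. Of all 32817 promoter windows, 41.5% were touched by a peak in all 4 libraries, a looser measure than cover of all 300 bases. The kB-like stretches of these 5 genes lay in called accessible DNA after dDAVP and after vehicle alike. The downstream start listed for Tnfaip3 had no peak in any library. At Lcn2, peaks covered 300 and 0 bases of the window in dDAVP replicates 1 and 2, against 300 and 38 bases in vehicle replicates 1 and 2.

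**Figure D1:**
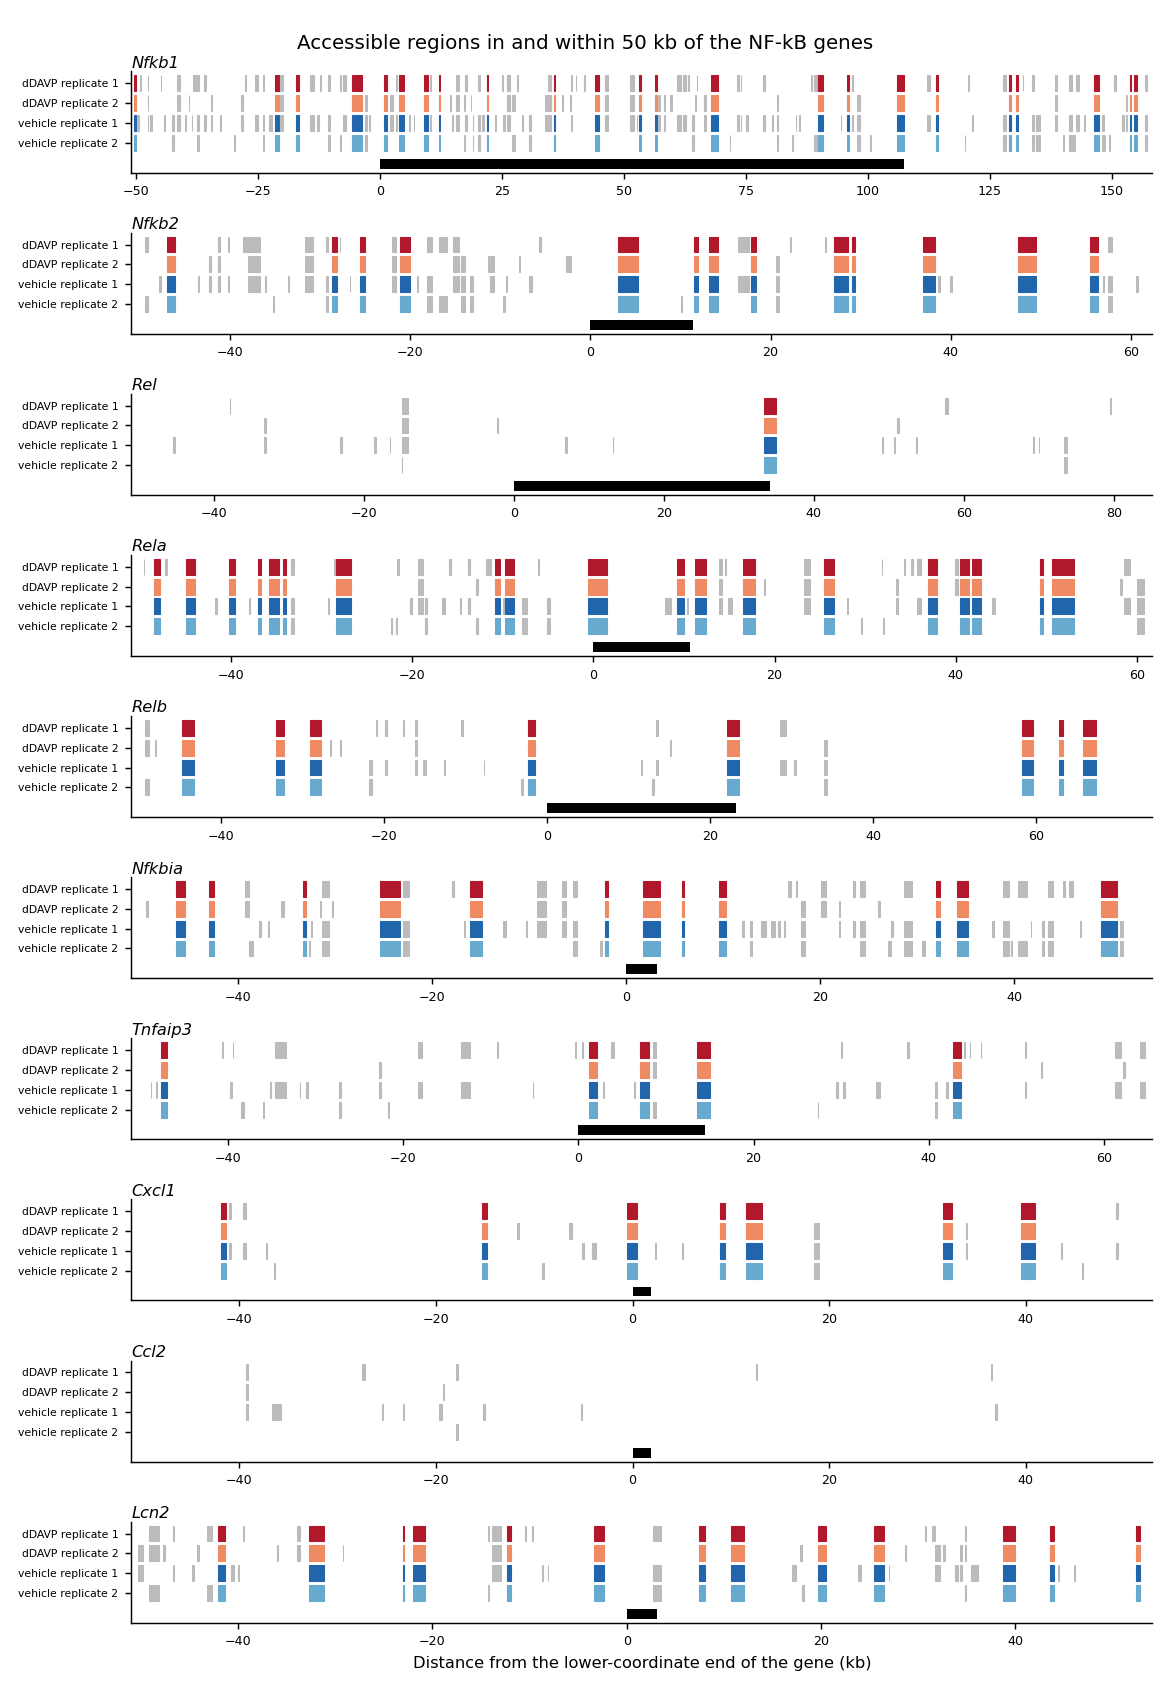
Regions in and within 50 kb of each gene, one panel per gene and one track per library; the x axis is the distance in kb from the lower-coordinate end of the gene and the black bar is the gene body. Each mark spans a merged region in which the library had a peak (thin outlines keep narrow ones visible), coloured where all 4 libraries had one and grey elsewhere; Nfkb1 carried 25 coloured regions, Rel 1 and Ccl2 0.

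Gene by gene, a peak lay, in all 4 libraries, within 1 kb of a gene end at 8 of the 10 genes, against 65.0% of all 21883 protein-coding genes. These were the 5 subunit genes, both feedback genes and Cxcl1. Lcn2 had such a peak in 3 libraries and Ccl2 in none. Fewer accessible cells and weaker access per cell cannot be told apart in bulk libraries.

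Among the subunit genes, Nfkb2 (chr19:46300994-46312400), which encodes the precursor processed in the non-canonical pathway, had the widest start region. It spanned chr19:46304034-46306259 inside the annotated gene body and took in all 3 listed starts, with 2087 and 2226 bp under peaks in dDAVP replicates 1 and 2, against 1913 and 2032 bp in vehicle replicates 1 and 2. Both dDAVP values were above both vehicle values, as at 12.9% of all regions present in every library (17.5% the other way). The peak within 1 kb of its gene end was a different and narrow one at chr19:46312551-46312885, which also lies at an end of the neighbour Psd, with 328 and 137 bp in dDAVP libraries and 193 and 186 bp in vehicle libraries.

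Rela (chr19:5637442-5648134) encodes the main transactivating subunit of the canonical pathway. Its start region, chr19:5636823-5639000, had 1509 and 1644 bp in dDAVP libraries, against 1787 and 1257 bp in vehicle libraries, so the vehicle values lay on both sides of the dDAVP values. At its other end, chr19:5646631-5647449 had 419 and 635 bp after dDAVP, against 646 and 272 bp after vehicle. Beyond it, chr19:5648619-5649913 had 1126 and 586 bp after dDAVP and 963 and 432 bp after vehicle. In each group the first replicate was the wider there.

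Rel (chr11:23736847-23770969) encodes c-Rel, a subunit best known from lymphocytes. Its start region, chr11:23770259-23771804, had 1530 and 1323 bp in dDAVP libraries, against 1276 and 1259 bp in vehicle libraries. Nfkb1 (chr3:135584655-135691969) encodes the precursor of the canonical DNA-binding subunit. The wider of its gene-end regions, chr3:135690595-135692014, had 1346 and 1329 bp in dDAVP libraries, against 1232 and 1235 bp in vehicle libraries. At both genes the groups did not overlap and every library had a peak over 1 kb wide. The second Nfkb1 end, chr3:135585450-135586044, had 550 and 417 bp after dDAVP, against 369 and 263 bp after vehicle.

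Relb (chr7:19606217-19629438) encodes the partner of the processed Nfkb2 product. Its gene-end region, chr7:19628309-19629702, had 1394 and 1349 bp in dDAVP libraries, against 1353 and 1349 bp in vehicle libraries, the most even of the subunit regions.

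Nfkbia (chr12:55489409-55492647) encodes the inhibitor IkB-alpha and is a classical rapid target of the dimers it restrains. Its region, chr12:55491144-55492953, had 1783 and 1529 bp in dDAVP libraries, against 1564 and 1521 bp in vehicle libraries. These groups overlapped. Tnfaip3 (chr10:19000910-19015410) encodes A20, a ubiquitin-editing enzyme that ends NF-kB signalling. Its upstream start region, chr10:19014428-19015896, had 1469 and 1399 bp after dDAVP and 1466 and 1437 bp after vehicle, and the vehicle values lay between the dDAVP values.

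Of the target genes, Cxcl1 (chr5:90891245-90893121), a neutrophil-attracting chemokine, had a start region at chr5:90890730-90891719 with 990 and 818 bp in dDAVP libraries, against 674 and 792 bp in vehicle libraries, and the groups did not overlap. Lcn2 (chr2:32384637-32387739) had one at chr2:32387377-32388181 with 546 and 0 bp in dDAVP libraries, against 711 and 424 bp in vehicle libraries. The library without it, dDAVP replicate 2, has the shortest peak list, with 205771 peaks. Vehicle replicate 2, with 206972 peaks, had the region, and the cause was not tested. Ccl2 (chr11:82035577-82037452), a monocyte-attracting chemokine, had no peak within 1 kb of either end in any library. The remaining gene-end regions, 1 each at Rela and Cxcl1 and 2 at Tnfaip3, were called in a single library and were 89 to 118 bp wide.

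**Figure D2:**
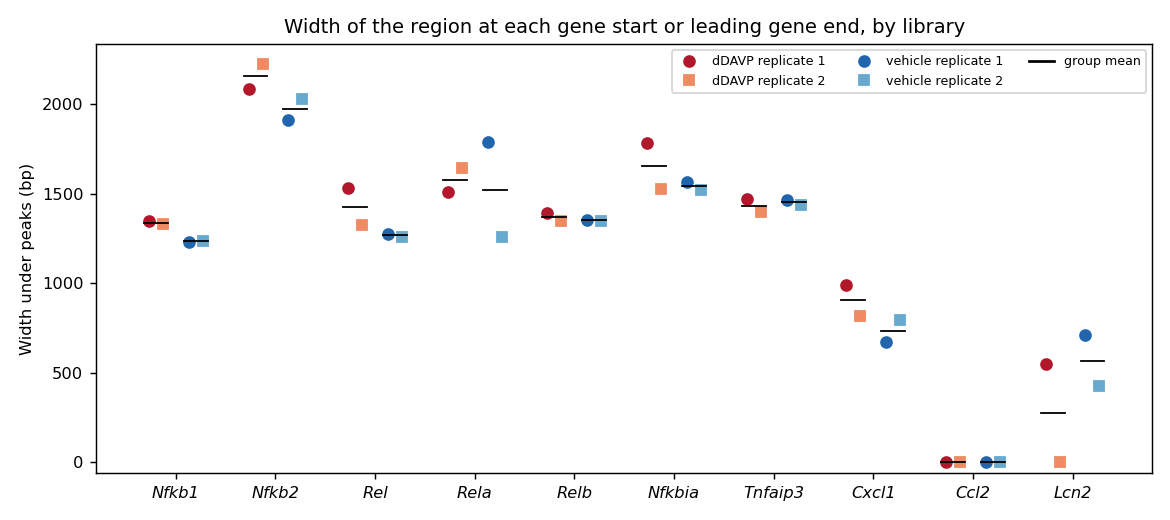
Width under peaks in bp (y axis) of the region at each gene start, or of the widest gene-end region where no start was listed, with 1 point per library and bars at group means (n = 2). Nfkb2 reaches 2226 bp, Ccl2 is at 0 in every library, and Lcn2 is at 0 in dDAVP replicate 2.

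Widths over all protein-coding genes open at an end in every library place these values. Taking each gene's widest such peak, the Nfkbia peak was wider than that of 90.3% of those genes, Tnfaip3 than 84.4%, Rela than 83.3%, Relb than 79.9%, Rel than 79.0% and Nfkb1 than 75%. Cxcl1 was wider than 33.1%. By the same measure Nfkb2 was wider than 0.992%, because its broad start region lies inside the annotated body and more than 1 kb from its ends.

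Beyond the gene starts, of the 491 regions, 103 (21.0%) were present in all 4 libraries, against 15.7% of all regions and 16.7% of regions within 50 kb of any protein-coding gene. They had a median width of 886 bp, against 770 bp for all-library regions genome-wide. Another 247 (50.3%) were called in a single library and were narrow, at a median of 149 bp. Among the 103, 11 lay at an end of a listed gene, 15 elsewhere inside one, 20 at an end of another protein-coding gene, 20 inside another gene and 37 outside protein-coding genes. The subunit loci held 66 of 300 regions in all libraries (22%), the feedback loci 17 of 106 (16%) and the target loci 20 of 85 (23.5%).

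The loci held a median of 10 all-library regions each, against 6 over all protein-coding genes. Peak density differs widely between chromosomes in these libraries, so each locus was also set beside the genes of its own chromosome. Lcn2 had 12.6 all-library regions per 100 kb, against a median of 4.37 on chromosome 2. Relb had 6.49, against 2.5 on chromosome 7. Rela had 17.2, against 13 on chromosome 19, and Nfkb1 had 12.1, against 8.9 on chromosome 3. Nfkb2, Nfkbia and Cxcl1 were nearer their chromosomes, with 11.7 against 13, 11.6 against 11.4 and 6.87 against 5.61. Tnfaip3 had 4.37, against 8.76 on chromosome 10. On chromosome 11, where the median was 7.5, Rel had 0.746 and Ccl2 had 0. In all, 6 of the 10 loci were above their chromosome's median.

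**Figure D3:**
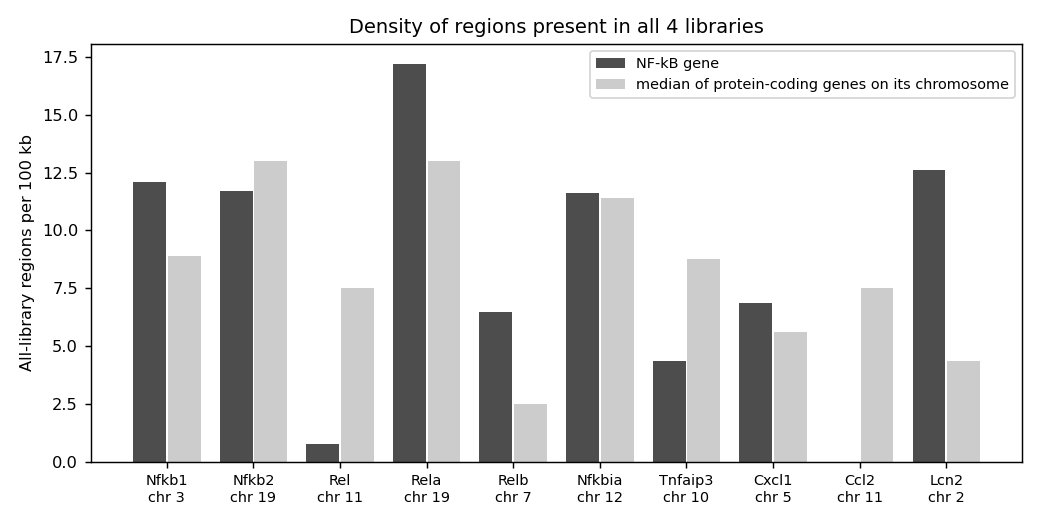
Regions present in all 4 libraries per 100 kb of window (y axis), for each NF-kB gene (dark bars) and the median of all protein-coding genes on its chromosome (light bars). Lcn2 stands at 12.6 against 4.37, whereas Rel (0.746) and Ccl2 (0) stand below the 7.5 of chromosome 11.

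Inside Nfkb1, 12 regions away from the gene ends were present in every library, from 296 to 990 bp wide with a median of 512 bp, and 8 more lay outside protein-coding genes within 50 kb. The Nfkbia window holds no other protein-coding gene of the RefSeq table, yet 11 of its 12 all-library regions lay outside the gene. The widest of them, chr12:55464062-55466139, lay 23270 bp from Nfkbia and was on average wider than the region at the gene itself, with 1685 and 2065 bp in dDAVP libraries, against 1941 and 1868 bp in vehicle libraries. Tnfaip3, also alone in its window, had 2 all-library regions inside the gene besides its start and 2 outside it. One of those inside, chosen after its values were seen, chr10:19007928-19008975, had 875 and 891 bp after dDAVP, against 852 and 226 bp after vehicle, so vehicle replicate 2 alone was low.

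At Lcn2 none of the 13 all-library regions touched the gene, and 4 of them lay at ends of its neighbours. The widest was chr2:32351984-32353496 at Dnm1, with 1261 and 955 bp in dDAVP libraries, against 1484 and 1478 bp in vehicle libraries. There both vehicle values were above both dDAVP values. At Relb 5 of 8 and at Rela 5 of 19 lay at ends of other genes, with the widest at Apoc2 (chr7:19671879-19673503) and at the ends of Pcnx3 and Map3k11 (chr19:5688068-5690499). The Relb region had 1613 and 1242 bp after dDAVP, against 1479 and 1290 bp after vehicle. Map3k11 encodes a kinase upstream of JNK. The Rela region had 2071 and 1918 bp after dDAVP, against 1871 and 2387 bp after vehicle.

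The Cxcl1 window takes in Cxcl2, a related neutrophil chemokine. The widest region there, chr5:90902823-90904374, was the one at Cxcl2, with 979 and 1350 bp in dDAVP libraries, against 1445 and 1046 bp in vehicle libraries. Around Ccl2, which has the chemokine genes Ccl7 and Ccl11 beside it, 13 regions were called and 11 of them in 1 library. The most widely shared, picked on that ground, chr11:81996285-81996436, had 142 and 85 bp in dDAVP libraries, against 152 and 0 bp in vehicle libraries. Rel had its start as the only all-library region among 21, and 17 were called in 1 library.

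Other genes of the pathway were read by the same gene-end measure in 4 lists that do not repeat the 10 genes. All 11 genes of the IKK complex and its upstream kinases had one of these peaks in every library, among them the kinase genes Map3k7 (1150 ± 126 bp, SD over 4 libraries), Map3k14 (1210 ± 36.6 bp) and Ripk1 (1280 ± 64.0 bp) and the adaptor gene Tab2 (1590 ± 67.3 bp). All 12 further IkB proteins and feedback regulators had one as well, with Traf3 (1880 ± 535 bp), the deubiquitinase gene Cyld (1490 ± 257 bp), the IkB gene Nfkbie (1290 ± 160 bp) and Tnip2 (1280 ± 69.7 bp) the widest. The whole-genome share is 65.0%.

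Receptors and adaptors feeding the pathway had one in all libraries at 15 of 19 (78.9%), against 65.0% of all protein-coding genes. The widest were Ltbr, the lymphotoxin receptor (1200 ± 27.6 bp), the interleukin-1 receptor partner Il1rap (1180 ± 75.2 bp), the adaptor gene Ticam1 (1120 ± 337 bp) and the TNF receptor gene Tnfrsf1a (1110 ± 167 bp). The Ltbr peak had the same width in every library as that of Scnn1a, the epithelial sodium channel subunit gene, also on chromosome 6. A single peak may therefore have been counted for both genes. The others, Tnfrsf1b, Tnfrsf11a, Il1r1 and Tlr5, had a peak in 2 or 3 libraries and none in dDAVP replicate 2.

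Further inflammatory targets had one in all libraries at 21 of 32 (65.6%), close to the 65.0% of all protein-coding genes. The stress-response gene Gadd45b led (2620 ± 388 bp), followed by the chemokine gene Cx3cl1 (1700 ± 170 bp), Ier3 (1600 ± 655 bp) and Cxcl16 (1410 ± 43.3 bp). No library had one at Il1a, Vcam1 or Sele. The remaining 8 were called in 1 to 3 libraries, and examples chosen after their values were seen are Il1b and Ccl20 in vehicle replicate 1 alone, Ccl7 in dDAVP replicate 1 alone, and Tnf at 210 and 158 bp in dDAVP libraries, against 0 and 122 bp in vehicle libraries. At no gene of these 4 lists did gene-end peaks separate the treatments, that is, occur in every library of 1 treatment and be missing from the other. Over all protein-coding genes, 0.21% were open after dDAVP alone in this sense and 0.864% after vehicle alone. A peak within 1 kb of a gene end can belong to a neighbour.

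Of the markers of the labelled cell type, 9 of 10 principal-cell genes carried a gene-end peak throughout, led by Gata3, Scnn1a, Elf3 and Hsd11b2, against 65.0% of all protein-coding genes. The exception, the V2 receptor gene Avpr2, had one in dDAVP replicate 1 and vehicle replicate 2. The Scnn1a peak may be the same one that was counted for Ltbr. Leukocyte markers had one in all libraries at 2 of 10, Cd68 and Lyz2, and Ptprc had none in any library. Adgre1, which encodes a macrophage surface receptor, had 0 bp in both dDAVP libraries, against 323 and 134 bp in vehicle libraries, a pattern shared by 0.864% of all protein-coding genes.

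The comparison of dDAVP with vehicle asked whether access around these genes differed after 30 minutes. The libraries differ in list length, from 205771 peaks in dDAVP replicate 2 and 206972 in vehicle replicate 2 to 291454 in dDAVP replicate 1 and 393956 in vehicle replicate 1. Peaks were present at 258 and 199 of the 491 regions in dDAVP replicates 1 and 2, against 343 and 197 in vehicle replicates 1 and 2. The means were 228 ± 41.7 and 270 ± 103 (SD, n = 2 each), a ratio of 0.846 (two-sided exact permutation p = 1.0). With 2 libraries against 2 no exact p can be under 0.33. Without vehicle replicate 1 the ratio was 1.16. As a share of each library's regions, the loci took 0.0916% and 0.1% in dDAVP libraries, against 0.0892% and 0.099% in vehicle libraries, and the groups overlapped.

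Nfkb1 had regions with a peak at 75 and 54 places in dDAVP libraries, against 100 and 55 in vehicle libraries. Nfkbia had 30 and 23, against 42 and 30. Tnfaip3 had 23 and 9, against 27 and 12, with both first replicates high. Lcn2 had 26 and 27, against 31 and 19. Vehicle replicate 1 had the highest count at each of the 10 loci.

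**Figure D4:**
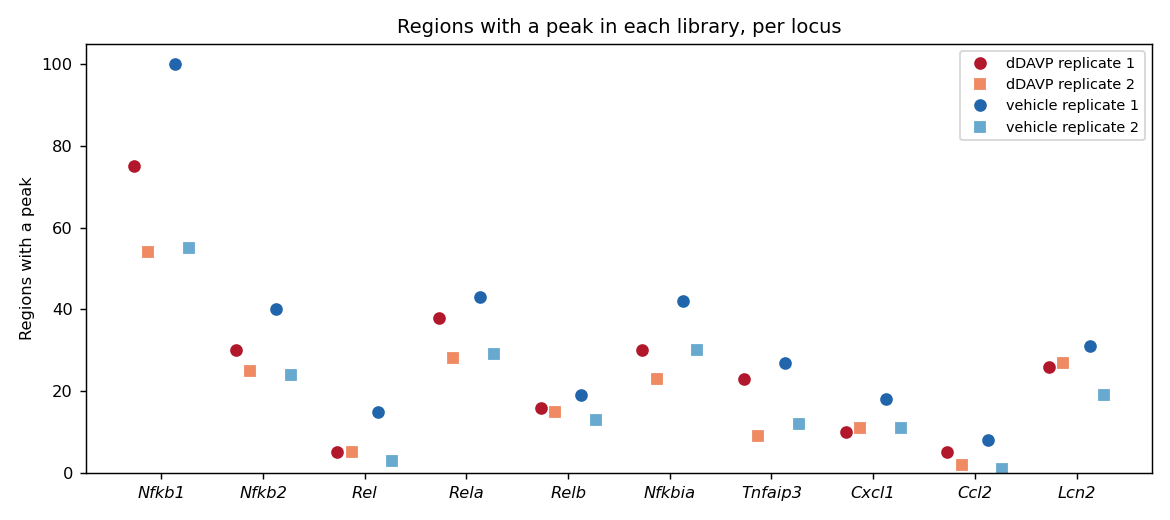
Number of regions with a peak (y axis) at each locus, with 1 point per library. Vehicle replicate 1 is the highest point at every gene, from 8 at Ccl2 to 100 at Nfkb1.

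Regions called after dDAVP in both replicates but never after vehicle numbered 4 (0.815% of the 491), against 1.61% of all regions. Regions with the opposite pattern numbered 17 (3.46%), against 3.35% of all regions. Pairs that mix the treatments also shared regions found nowhere else, from 3 to 35. dDAVP replicate 2 and vehicle replicate 1 alone shared 18 (3.67%, against 3.17% of all regions). dDAVP replicate 1 and vehicle replicate 2 alone shared 8 (1.63%, against 1.57%). Both first replicates alone shared 35 (7.13%, against 8.79%) and both second replicates alone shared 3 (0.611%, against 1.19%). Both counts rise with any library left out, since the pattern then has to hold in fewer libraries. These settings therefore say nothing about stability. Without dDAVP replicate 1 there were 41 dDAVP-only regions against 38 vehicle-only ones, and without dDAVP replicate 2 there were 67 against 27. Without vehicle replicate 1 the counts were 24 against 52, and without vehicle replicate 2 they were 9 against 138. Shares over all regions were not computed with a library left out.

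None of these 21 regions lay at an end of a protein-coding gene, and the merged regions were 295 to 519 bp wide for dDAVP and 178 to 780 bp (median 295) for vehicle. Of the dDAVP-only regions, chr12:55450112-55450512 and chr12:55509462-55509980 lay 38897 and 16815 bp from Nfkbia, the second with 519 and 232 bp under peaks. The others were chr19:5677309-5677651, inside Pcnx3 near Rela, with 343 and 177 bp, and chr2:32350719-32351013, inside Dnm1 near Lcn2, with 295 and 200 bp.

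Of the vehicle-only regions, 6 were at Nfkb1. Inside the gene lay chr3:135603636-135603813, chr3:135615176-135615654 and chr3:135648636-135648969, and outside it chr3:135541935-135542478, chr3:135719066-135719845 and chr3:135732700-135732994. Near Rela were chr19:5618917-5619129, chr19:5629582-5630126 and chr19:5632280-5632683, and near Nfkb2 was chr19:46287657-46287978. Nfkbia had chr12:55502199-55502427, chr12:55532223-55532440 and chr12:55540308-55540574. Tnfaip3 had chr10:18973619-18973822 and chr10:19041616-19041880, Rel had chr11:23810182-23810571 and Relb had chr7:19584440-19584713. Cxcl1 and Ccl2 had neither pattern. The largest contrast in width was at chr3:135719066-135719845, with 780 and 171 bp in vehicle libraries and none called after dDAVP.

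Widths of regions present in all libraries were then compared with limma on the log2 scale after quantile normalization, fitted over all 88231 such regions. None of the 103 regions at these loci passed an adjusted p of 0.05 (0.0% of all regions did), and the smallest adjusted p among them was 0.87. At an unadjusted p under 0.05 there were 5 of 103, against 5.28% of all regions. The median log2 difference, dDAVP minus vehicle, was 0.06 at these loci and 0.04 over all regions, with 59 of 103 above 0 against 54.1% of all regions. Before normalization, widths did not overlap between the groups at 36 regions (35.0%), 18 wider after dDAVP and 18 wider after vehicle, against 30.5% of all regions.

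At the start or leading gene-end regions, the log2 difference was largest at Cxcl1, at 0.39 ± 0.34 (SE). Among the subunit genes it was 0.21 ± 0.29 for Rel, 0.17 ± 0.29 for Nfkb2, 0.16 ± 0.28 for Nfkb1, 0.10 ± 0.32 for Rela and 0.06 ± 0.28 for Relb. The feedback genes had 0.14 ± 0.29 at Nfkbia and 0.02 ± 0.28 at Tnfaip3. At Tnfaip3 the widths before normalization ran the other way, with means of 1430 bp after dDAVP and 1450 bp after vehicle, so the sign there turns with quantile normalization. Each had a limma adjusted p of 1.0. Of these 8, 4 had dDAVP widths that did not overlap the vehicle widths (Nfkb1, Nfkb2, Rel and Cxcl1), each with the dDAVP libraries wider. That pattern was seen at 12.9% of all regions present in every library, and the opposite one, which none of the 8 showed, at 17.5%. For the widest gene-end peak of the protein-coding genes open in every library, dDAVP widths were all above vehicle widths at 14.9%. The 8 regions are few and share the same 4 libraries, and none of them was called.

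Regions with the lowest unadjusted p, chosen after their values were seen, lay away from the gene ends. At chr19:46253939-46254824, inside Gbf1 near Nfkb2, 284 and 303 bp were under peaks in dDAVP libraries, against 886 and 778 bp in vehicle libraries (log2 difference -1.42 ± 0.29 SE, limma adjusted p = 0.87). At chr5:90849384-90849896, 41349 bp from Cxcl1, there were 182 and 197 bp, against 501 and 463 bp (-1.23 ± 0.30, limma adjusted p = 0.872). In the other direction, chr19:5627700-5628740, 8702 bp from Rela, had 821 and 577 bp after dDAVP, against 152 and 294 bp after vehicle (1.78 ± 0.54, limma adjusted p = 0.904). In all 3 the groups did not overlap, and none passed after adjustment.

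**Figure D5:**
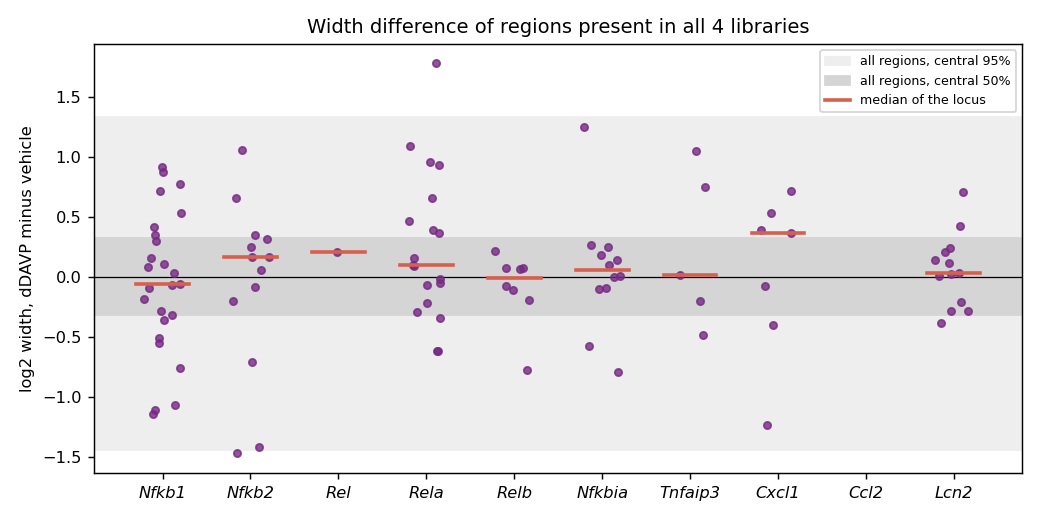
Difference in log2 width, dDAVP minus vehicle (y axis), of the 103 regions present in all 4 libraries, with 1 point per region and a bar at each locus median; grey bands hold the central 50% and 95% of all such regions. Locus medians run from -0.05 at Nfkb1 to 0.37 at Cxcl1, and Ccl2 has no such region.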

How the data were processed

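ATAC-seq peak lists of 4 mpkCCD libraries, 2 per treatment, each from 50000 cells and read from both ends for 50 bases, were used as the authors deposited them. They hold chromosome, start and end on mm10, with no score or depth, so the depth per library is unknown and absence means only that nothing was called. Per the submitters' processing notes, MACS2, Bowtie2, cutadapt, Picard, SAMtools and bedtools were used. Their versions, the peak threshold, and whether reads were shifted for the transposase remain not given in the sources used here.

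Treatment and replicate number came from the titles. Peaks overlapping by 1 bp or more were merged (touching peaks stayed apart), and a library's width in a region is the sum of its peaks there. Gene and promoter positions came from RefSeq tables on GRCm38.p6 (21883 protein-coding genes; all listed genes matched). Coordinates are 1-based. Widths of all-library regions were tested with limma 3.58.1 in R 4.3.3 with Benjamini-Hochberg adjustment at 0.05, and region numbers with exact two-sided permutation tests. Merging, the library patterns and the limma width fit were tested on simulated data. A gene counted as open with a peak within 1 kb of either end, since starts were not listed for every gene.

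The members, gene lists, tests and the rule for named regions (gene-end and start regions, the widest all-library region per locus, every treatment-specific region; of the lists, the 4 widest and those without a peak or with one after 1 treatment only) were chosen with earlier results of these data known. The values of 1 marker gene are not reported here. Alternatives covered left-out libraries, stricter and length-matched peaks, merging, windows, normalization and a replicate block.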

Additional observations from a re-analysis of the deposited data

How the results depend on the processing

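limma called no region width anywhere in the genome under the 12 alternatives run, so the lack of calls at the NF-kB loci says nothing about stability. The median log2 difference at the loci ranged from 0.00462 to 0.111. Where a library was left out, the remaining one of its group was assumed to vary like the other group. Replicate numbers are not stated to mark pairs, and same-numbered libraries deviated together with a correlation of 0.0969 over 88231 regions. With the replicate block there were 0 calls at the loci, the median difference was 0.0631 and 4903 regions, in place of 4655, had an unadjusted p under 0.05. Leaving out 1 library at a time gave 9 to 67 dDAVP-only and 27 to 138 vehicle-only regions, in place of 4 and 17, ratios of region number from 0.665 to 1.16, and width differences from -0.108 to 0.313 at the Rela start and from -0.0135 to 0.0539 at Tnfaip3. With the widest peaks of each library, as many as the shortest list holds, the dDAVP-only regions numbered 8, the vehicle-only ones 11, and the ratio turned to 1.01. As a share of each library's regions it was 1.02. Peaks at least as wide as their library's median left 3 dDAVP-only and 4 vehicle-only regions. Merging peaks up to 100 bp apart gave 3 and 19, and requiring peaks to cover a set share of the region gave 6 and 14. Windows of 25 kb gave 1 dDAVP-only and 9 vehicle-only regions and a median of 5 all-library regions per gene. Windows of 100 kb gave 8 dDAVP-only and 24 vehicle-only regions and a median of 16.5. The treatment-only patterns are easier to meet with a library left out, and the window settings cover less or more of the genome. The cause of the other changes was not tested. Pathway genes open in all libraries numbered 54 to 67 of 74 under the alternatives, against 59. For the treatment-only counts and the open pathway genes, shares over all regions or genes were not computed under the alternatives. Whether these changes are particular to the NF-kB genes is therefore not known. Counting error is unknown without read depth, and 2 libraries per group limit every comparison.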
